A study of Homo sapiens with 6 samples.

Results

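Genes subject to genomic imprinting, PEG10 among them, were examined in RNA sequencing of 6 libraries labelled BxPC-3, an established human line from a pancreatic tumour. The set was chosen by name: 36 gene names, found in 37 of the rows of a table of 58735 genes because IGF2 has a row for each of 2 annotated genes. Rows were found by gene name; the names themselves were chosen with earlier results of these data known. Of the 36 genes, 22 reached 1 FPKM (fragments per kilobase of gene, scaled to the size of the library) in at least 3 of the 6 libraries and were tested, 6 were detected below that level, and 8 had 0 reads in every library.

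In genomic imprinting, marks laid down in the egg or the sperm, chiefly DNA methylation, leave one parental copy of a gene active and the other silent. Imprinted genes lie in clusters under shared control regions and are known for roles in placental and fetal growth. PEG10 (paternally expressed gene) derives from the gag and pol genes of a retrotransposon, is needed for placental development in the mouse, and lies head to head with SGCE, which is also expressed from the paternal copy. PRMT5 is an enzyme that places symmetric dimethyl marks on arginines of histones, splicing proteins and other proteins.

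The 3 DMSO libraries served as the control, and the other 3 came from cells treated with a PRMT5 inhibitor, GSK3326595. The series text speaks of a knockdown of PRMT5, whereas every sample label speaks of the inhibitor. All cells were grown in RPMI-1640 with serum, and neither the dose nor the time of treatment is stated in the sources used here. Nothing in the labels ties the replicates to separate cultures: the p-values below weigh a difference against the spread among these libraries, and that spread may be technical.

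The libraries held 14087260 to 15724750 counted reads. PRMT5 stood at 23.2, 24.6 and 26.2 FPKM in DMSO replicates 1 to 3 and at 13.4, 12.8 and 12.1 with inhibitor, which does not measure the enzyme's activity. Its RNA was called lower (limma adjusted p = 0.00493, and at most 0.0396 with any 1 library left out). Inhibitor replicate 2 stood apart: its correlation with the other inhibitor libraries was 0.904 to 0.906, against 0.980 between those 2, mitochondrial reads were 11.3% against 4.70% to 6.03% elsewhere, and coding genes under 1500 bases held 1.09% of coding reads against 2.27% to 2.61%. Results are therefore also given without it. The label was set against markers. KRT8 and KRT18, keratins of simple epithelia, stood at 253 to 439 and 244 to 451 FPKM, KRT7 at 101 to 177 and the mucin MUC1 at 20.2 to 49.5. KRT7 averaged 163 FPKM in DMSO and 103 with inhibitor (limma adjusted p = 0.0151), and MUC1 21.8 and 48.3 (adjusted p = 0.00320). Leaving out a library raised the adjusted p of KRT7 to as much as 0.0843. Of the other pancreatic duct markers in the list of 11, KRT19 and PDX1 had 0 reads, SOX9 stood at 2.09 to 4.17 FPKM, and EPCAM reached 0.341 and CDH1 0.496. SMAD4 (2.61 to 3.9 FPKM) and CDKN2A (24.7 to 118), both known to be deleted in BxPC-3 and looked up after other markers had been seen, had reads in all 6 libraries, so the cells are called by their label and no more. Of 16 trophoblast markers 6 were at 0 (CGB3, CGB5, CSH1, HSD3B1, VGLL1 and HLA-G), and the summed level of all 16 was 292 to 309 FPKM in DMSO and 181 to 347 with inhibitor, most of it CGA and ALPP.

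Among the tested members PEG10 had the largest increase, while SGCE beside it was not called and TFPI2 fell. PEG10 (ENSG00000242265; chromosome 7, 94656325 to 94669695, plus strand, hg38) stood at 4.14, 3.95 and 4.15 FPKM in the DMSO libraries and at 18.1, 32.6 and 19.4 FPKM in the inhibitor libraries. Every inhibitor library lay far above every DMSO library, and inhibitor replicate 2 was the highest. The group means were 4.08 ± 0.112 and 23.4 ± 8.04 FPKM (SD, n = 3 each), a 5.73-fold ratio. On the log2(FPKM + 1) scale, on which all fold changes below are given and which understates changes of low genes, PEG10 rose by 2.22 (SE 0.22, 95% interval 1.68 to 2.75, limma adjusted p = 0.00338). It ranked 8 of the 13578 genes tested when ordered from the largest increase. Without inhibitor replicate 2 the increase was 1.96. Between 387 and 2922 reads per library lay behind these values.

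**Figure D1:**
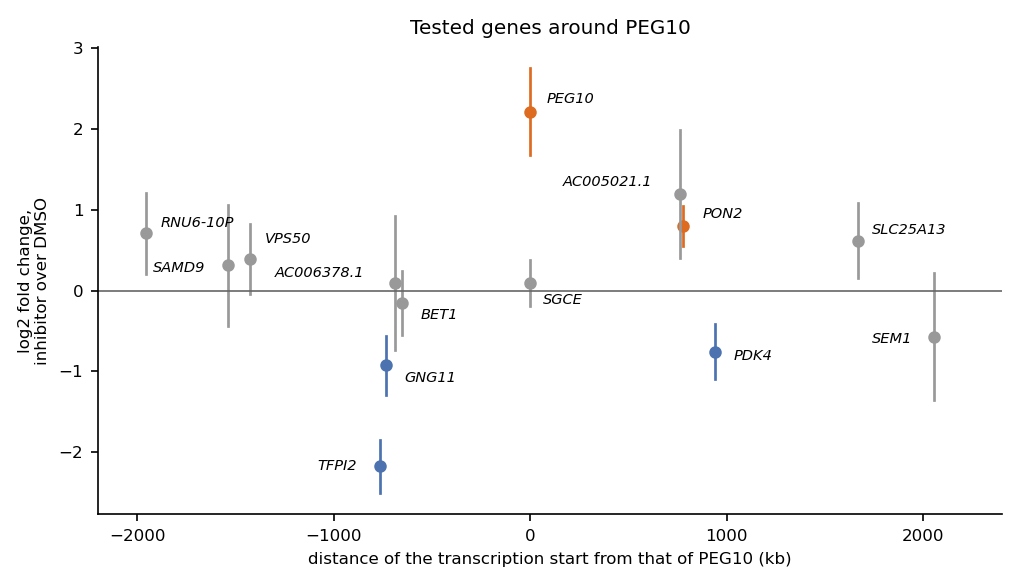
Difference between inhibitor and DMSO (log2 scale of FPKM + 1) for each tested gene whose start coordinate lies within 2 Mb of that of PEG10, against the distance between transcription starts in kb; bars show the 95% interval, orange marks genes called higher and blue genes called lower. PEG10 stands at 2.22 and SGCE beside it at 0.10, while TFPI2 lies at −2.17.

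SGCE, which encodes the muscle membrane protein epsilon-sarcoglycan, starts 0.247 kb from PEG10 on the opposite strand (chromosome 7, 94524204 to 94656572). It stood at 1.63, 1.43 and 1.35 FPKM under DMSO against 1.73, 1.55 and 1.64 FPKM with inhibitor, so the ranges of the groups overlapped. The difference was 0.10 (SE 0.12, adjusted p = 0.589), and its 95% interval of −0.19 to 0.38 lies below the interval of PEG10. Because the genes share a start region, their ratio was taken within each library, with 1 FPKM added to each gene as in the fold changes. This log2 ratio of PEG10 to SGCE was 0.97, 1.03 and 1.13 in DMSO and 2.81, 3.72 and 2.95 with inhibitor. Its mean was 2.12 higher with inhibitor (pooled SD 0.35; two-sided exact permutation p = 0.1, the smallest that 3 libraries against 3 allow; 0.12 adjusted over the 6 ratios taken). With nothing added the log2 ratios were 1.35, 1.47 and 1.62 against 3.39, 4.39 and 3.57, a difference of 2.31. PEG10 and SGCE overlap over 248 bases, and 3.27% of the exon length of PEG10 also lies in SGCE exons. The library kit keeps strand, but the sources used here do not state whether the authors counted by strand.

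PPP1R9A, which encodes neurabin, an actin-binding partner of protein phosphatase 1, lies beyond PEG10 (chromosome 7, 94907202 to 95296415). It stood at 0.545, 0.465 and 0.539 FPKM under DMSO against 0.799, 1.81 and 0.902 FPKM with inhibitor, on 76 to 270 reads a library. All inhibitor libraries lay above all DMSO libraries, and inhibitor replicate 2 was again the highest. The group means were 0.516 and 1.17 FPKM, a 2.27-fold ratio. The gene did not reach the level needed for the test, and passing it through without a filter gave a difference of 0.49 (adjusted p = 0.251). With FPKM rescaled to a common total per library (TPM), PPP1R9A was tested, and the difference was 0.77 (limma adjusted p = 0.112). The log2 ratio of PEG10 to PPP1R9A, with nothing added to either, was 2.93, 3.09 and 2.94 under DMSO against 4.5, 4.17 and 4.43 under inhibitor, a difference of 1.38 (1.73 with 1 FPKM added, which flattens a gene this low). The promoter is shown because PPP1R9A lies on this stretch, its groups did not overlap, and its upstream window holds no annotated exon, whereas that of TFPI2 does and the promoter table used has no entry for PEG10 or SGCE; the capitals mark each CG dinucleotide, the site of DNA methylation, which reads the same on both strands. The gene as counted here starts earlier, at 94907202, than the RefSeq start used for the promoter, so the window lies within the counted gene, outside its exons. The window is the 250 bases before the RefSeq start of the gene, chr7:94907344-94907593 on the plus strand of GRCh38.p14.
PPP1R9A: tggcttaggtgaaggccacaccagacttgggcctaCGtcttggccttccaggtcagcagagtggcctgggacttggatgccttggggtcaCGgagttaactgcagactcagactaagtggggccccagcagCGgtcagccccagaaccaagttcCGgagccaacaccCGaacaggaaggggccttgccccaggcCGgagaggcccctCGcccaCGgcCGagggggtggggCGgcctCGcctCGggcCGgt
It holds 13 CG dinucleotides, and 46.6% of the 35116 RefSeq promoters hold at least as many in a window of the same length. The upstream window of TFPI2 holds 20, a count reached by 32.4% of promoters. No methylation was measured here.

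TFPI2, a secreted inhibitor of serine proteases that is imprinted in the placenta, moved the other way. The gene (chromosome 7, 93885396 to 93890991) starts 765 kb from PEG10. It stood at 9.77, 11.1 and 8.76 FPKM under DMSO against 1.71, 1.25 and 1.28 FPKM with inhibitor. No inhibitor library came near a DMSO library. The means were 9.89 ± 1.19 and 1.41 ± 0.254 FPKM (SD, n = 3 each), 7.0-fold lower with inhibitor. TFPI2 fell by 2.17 (SE 0.14, adjusted p = 0.000981), and by 2.13 without inhibitor replicate 2. The log2 ratio of PEG10 to TFPI2, with 1 FPKM added to each, was 4.39 higher with inhibitor (5.28 with nothing added).

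Within 2 Mb on either side of PEG10 the table holds 63 genes, of which 14 were tested. Besides PEG10, 4 of 13 were called (30.8%; 17.2% of all genes tested were called in either direction). PON2, a lactonase of the paraoxonase family, rose from 16.5 ± 0.961 to 29.3 ± 1.01 FPKM (SD of 3 libraries each; 0.79, adjusted p = 0.00637). GNG11, a G protein gamma subunit that lies beside TFPI2, fell from 15.0 to 7.50 FPKM (−0.92, adjusted p = 0.0130). PDK4, a kinase that switches off pyruvate dehydrogenase, fell from 26.0 to 15.1 FPKM (−0.76, adjusted p = 0.0180). Leaving out DMSO replicate 1 ended the call of PON2 (adjusted p = 0.0532), leaving out DMSO replicate 1, 2 or 3 did so for GNG11 (0.0548 to 0.0714), and PDK4 was called in 1 of 6 such fits, the one without inhibitor replicate 2. The other 9 tested neighbours were not called: SLC25A13 (0.62), VPS50 (0.39), SAMD9 (0.31), SGCE, BET1 (−0.15), SEM1 (−0.57), the short RNU6-10P (0.71) and the noncoding AC005021.1 (1.20) and AC006378.1 (0.09). RNU6-10P had only 1 to 4 reads a library, AC005021.1 2 to 22 and AC006378.1 1 to 19. AC005021.1 also lies within PON2 on the opposite strand. Without inhibitor replicate 2, TFPI2, PON2, GNG11 and PDK4 stayed called. SLC25A13 (0.43, limma adjusted p = 0.0284), RNU6-10P (0.86, 0.0146) and AC005021.1 (0.84, 0.0219) were then called higher too. In that fit 17.5% of all genes were called higher and 23.1% lower. The genes called with all libraries lay on both sides of PEG10 and went in both directions, and the median of the 13 was 0.10. Among coding genes below the level for testing, SAMD9L, a growth-restraining relative of SAMD9, stood at 0.475, 0.440 and 0.492 FPKM under DMSO against 0.735, 1.61 and 0.782 under inhibitor, with groups that did not overlap and replicate 2 highest, as for PPP1R9A. CASD1, which overlaps the far end of SGCE, stood at 0.641 to 1.05 FPKM in DMSO and 0.721 to 1.08 with inhibitor. COL1A2, CALCR and PON1 had 0 reads.

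Farther along chromosome 7, MEST and COPG2 meet tail to tail. COPG2, a subunit of the COPI vesicle coat (130506238 to 130668748), stood at 7.46, 7.62 and 5.92 FPKM under DMSO against 9.88, 10.3 and 11.3 FPKM with inhibitor. The groups did not overlap, and COPG2 rose by 0.53 (SE 0.13, adjusted p = 0.0377), 1.5-fold between the means. That call is the least firm of the set: it held in 1 of 6 fits that left out a library, the one without inhibitor replicate 2, with adjusted p-values of 0.0811 to 0.123 in the other 5. MEST, a hydrolase-like protein expressed from the paternal copy (130486171 to 130506465), stood at 4.45, 4.54 and 4.07 FPKM under DMSO against 5.92, 7.87 and 5.31 FPKM with inhibitor. Its groups did not overlap either, but the difference of 0.45 (SE 0.15) had an adjusted p of 0.0912; without inhibitor replicate 2 it was 0.30 with an adjusted p of 0.0334. The log2 ratio of COPG2 to MEST, with 1 FPKM added to each, differed by 0.08 (two-sided exact permutation p = 0.7). Exons of other genes on the opposite strand cover 27.4% of MEST and 8.87% of COPG2. On the short arm, GRB10, an adaptor that restrains insulin and IGF receptor signalling, stood at 4.61 to 5.40 FPKM under DMSO against 3.53, 5.14 and 3.75 with inhibitor (−0.24, adjusted p = 0.301). Without inhibitor replicate 2 it was −0.37 (adjusted p = 0.0192). DDC beside it, the enzyme that makes dopamine and serotonin, was at 0 except for 3 reads in inhibitor replicate 2.

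On chromosome 11 the cluster from KCNQ1 to NAP1L4 spans 548 kb, and its members moved in different directions. KCNQ1, a potassium channel subunit (2444684 to 2849110), stood at 4.67, 4.88 and 5.13 FPKM under DMSO against 12.1, 9.51 and 13.5 FPKM with inhibitor. All inhibitor libraries lay above all DMSO libraries, here with replicate 2 the lowest of them. The means were 4.90 ± 0.231 and 11.7 ± 2.04 FPKM (SD, n = 3 each), a 2.39-fold ratio, and KCNQ1 rose by 1.10 (SE 0.15, adjusted p = 0.00689). PHLDA2, a small protein that limits placental growth (2928273 to 2929455), stood at 156, 145 and 192 FPKM under DMSO against 50.9, 21.3 and 53.8 FPKM with inhibitor. In DMSO its mean level was above that of 98.6% of the genes tested. The means were 164 ± 24.4 and 42.0 ± 18.0 FPKM (SD, n = 3 each), 3.91-fold lower with inhibitor, and PHLDA2 fell by 2.04 (SE 0.36, adjusted p = 0.0151). The gene is 955 bases long, and inhibitor replicate 2, the lowest, was also the library poorest in reads of short genes. Without that library PHLDA2 was at −1.62, still called; the fits without DMSO replicate 1, 2 or 3 had adjusted p-values of 0.0618 to 0.0721.

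**Figure D2:**
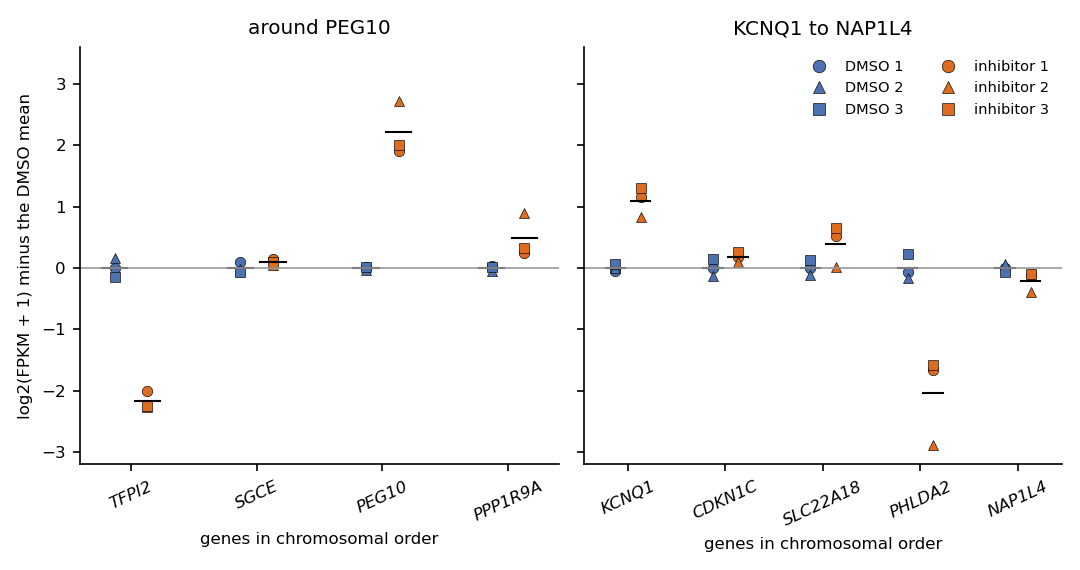
Value of log2(FPKM + 1) in each of the 3 DMSO (blue) and 3 inhibitor (orange) libraries minus the DMSO mean, with the group mean as a bar, for members around PEG10 (left) and from KCNQ1 to NAP1L4 (right). KCNQ1 lies higher and PHLDA2 lower with inhibitor, while CDKN1C between them overlaps.

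The genes between and around them did not pass the test. CDKN1C, an inhibitor of cyclin-dependent kinases expressed from the maternal copy, stood at 53.2, 48.6 and 59.0 FPKM under DMSO against 60.9, 57.3 and 64.2 with inhibitor (0.18, 95% interval −0.11 to 0.47, adjusted p = 0.332). SLC22A18, a transporter of the organic cation family, ends 3.03 kb from PHLDA2 and stood at 7.06, 6.46 and 7.86 FPKM under DMSO against 10.7, 7.18 and 11.7 with inhibitor (0.39, adjusted p = 0.187; 0.58 and 0.00598 without inhibitor replicate 2). The log2 ratio of SLC22A18 to PHLDA2, with 1 FPKM added to each, was between −4.44 and −4.29 in DMSO and between −2.15 and −1.45 with inhibitor, a difference of 2.43 between neighbours. NAP1L4, a histone chaperone, stood at 42.0 to 45.7 FPKM under DMSO against 33.0 to 40.7 with inhibitor (−0.21, adjusted p = 0.283). KCNQ1OT1, the long antisense RNA expressed from the paternal copy that silences its neighbours in cis, stood at 0.00837 to 0.0265 FPKM in DMSO and 0.0173 to 0.0954 with inhibitor, on 12 to 117 reads. KCNQ1 overlaps exons of the opposite strand over 3.98% of its length. H19, the maternally expressed noncoding RNA of the adjoining cluster, stood at 12.1, 9.38 and 12.2 FPKM under DMSO against 14.0, 9.34 and 13.4 with inhibitor (0.11, adjusted p = 0.712). IGF2, the growth factor that shares its control region, had 0 reads in both rows, a count that allows, for counting error alone, up to 3 reads over the 6 libraries, or 0.00471 and 0.00562 FPKM. Both rows share exons with other genes, over 73.7% and 90.0% of their length, where reads may have been left uncounted.

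Several other clusters had no reads or few. On chromosome 14, MEG3, a maternally expressed noncoding RNA, had 0 reads (limit 0.00142 FPKM), and DLK1, a Notch-like ligand, had 4 reads in all. On chromosome 15, MAGEL2 and NDN, expressed from the paternal copy and missing in Prader-Willi syndrome, had 0 reads (limits 0.00762 and 0.0170 FPKM). SNRPN, a spliceosomal protein gene, and SNURF, which shares its transcript, had 0 reads too, but 33.6% and 69.3% of their exon length is shared with other genes on the same strand. MKRN3, a RING finger protein of the same cluster, stood at 0.613, 0.786 and 0.742 FPKM under DMSO against 0.670, 0.274 and 0.738 with inhibitor. UBE3A, the ubiquitin ligase of Angelman syndrome, which is imprinted in neurons, was expressed: 4.37, 4.36 and 3.27 FPKM in DMSO, 4.10, 7.84 and 4.22 with inhibitor (0.31, adjusted p = 0.396; 0.05 without inhibitor replicate 2). On chromosome 19, the zinc finger genes PEG3 and ZIM2, which share exons, had 0 reads (limits 0.00337 and 0.0107 FPKM). ZNF331, another zinc finger gene, stood at 4.97 to 5.64 FPKM in DMSO and 4.95 to 6.6 with inhibitor (0.14, adjusted p = 0.485). DIRAS3, a RAS-related growth suppressor on chromosome 1, reached 0.147 FPKM, on 11 reads in all.

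The remaining members were expressed and not called. GNAS, the stimulatory G protein alpha subunit on chromosome 20, stood at 109.8, 107 and 125 FPKM under DMSO against 127, 85.5 and 131 with inhibitor (−0.02, adjusted p = 0.960). On the same chromosome NNAT, a small membrane protein of the developing brain, stood at 2.87 to 3.65 and 3.34 to 4.10 FPKM (0.19, adjusted p = 0.334), BLCAP, within which NNAT lies, at 12.2 to 12.5 and 8.52 to 13.2 FPKM (−0.11, adjusted p = 0.692), and the chromatin reader L3MBTL1 at 1.76 to 1.95 and 1.58 to 1.81 FPKM (−0.06, adjusted p = 0.718). PLAGL1, a zinc finger factor of the growth network on chromosome 6, stood at 4.55, 4.61 and 4.64 FPKM in DMSO and lower in all 3 inhibitor libraries, at 3.94, 3.01 and 3.64 (−0.31, SE 0.12, adjusted p = 0.120). IGF2R, the receptor that takes IGF2 to the lysosome, stood at 16.5, 16.6 and 18.7 FPKM under DMSO against 11.8, 20.1 and 13.2 with inhibitor (−0.22, adjusted p = 0.471). Without inhibitor replicate 2, IGF2R was at −0.44 with an adjusted p of 0.0109. RB1, the retinoblastoma cell cycle brake, stood at 6.57, 6.42 and 5.49 FPKM in DMSO and higher in all 3 inhibitor libraries, at 8.19, 15.2 and 7.36 (0.59, SE 0.26, adjusted p = 0.159). INPP5F, an inositol phosphatase, stood at 1.39 to 1.83 and 1.32 to 2.41 FPKM (0.09, adjusted p = 0.745).

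**Figure D3:**
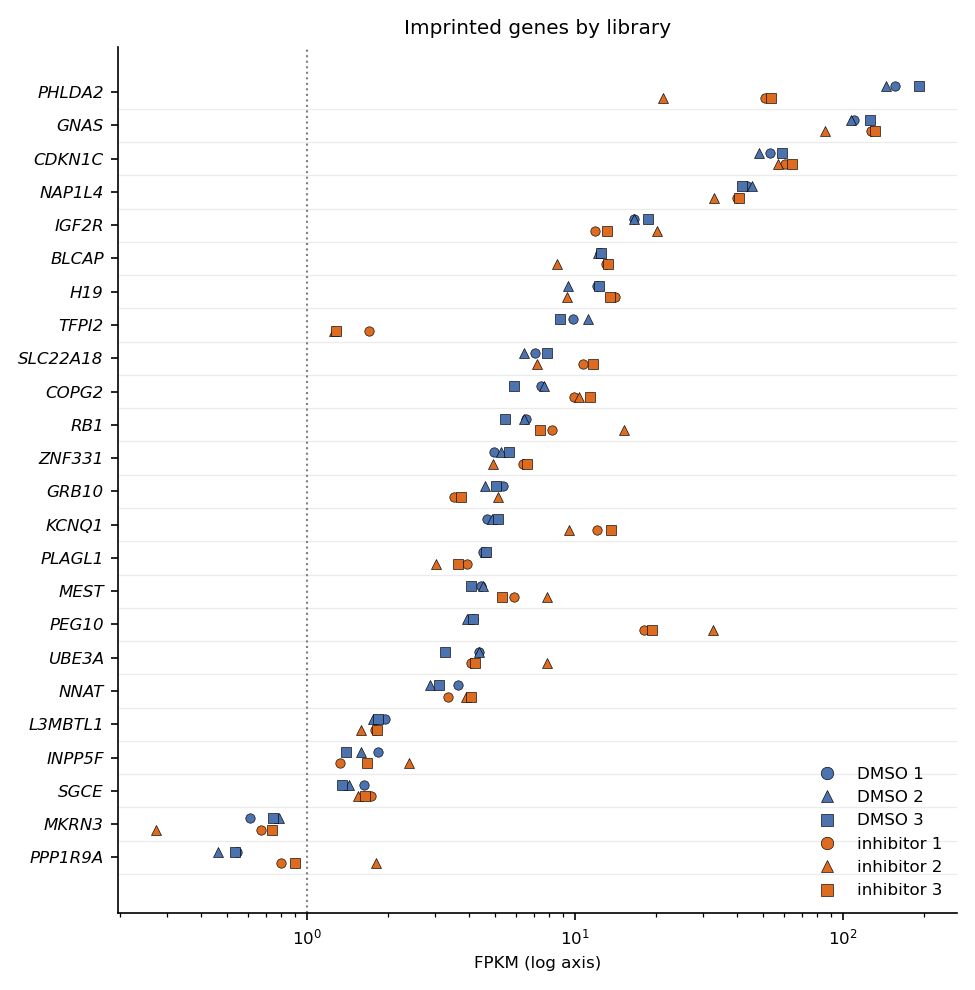
Level (FPKM, log axis) of the 22 tested members, MKRN3 and PPP1R9A in each library, DMSO in blue and inhibitor in orange; the dotted line marks 1 FPKM. PHLDA2, GNAS and CDKN1C are the most abundant in DMSO, and the PEG10 points of the inhibitor libraries, 18.1 to 32.6, stand clear of the DMSO points.

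Across the 22 tested members, 3 were called higher (PEG10, KCNQ1 and COPG2; 7.18% of all tested genes were called higher) and 2 lower (TFPI2 and PHLDA2; 10.0% of all tested genes). That is 22.7% of the members in either direction against 17.2% of all genes, shares that lie near each other. The groups did not overlap for 9 members, or 40.9% against 45.9% of all genes tested. The inhibitor libraries lay all above in 5 (19.2% of all genes) and all below in 4 (26.7% of all genes). The median difference of the members was 0.10 and that of all genes −0.05; the median size of the difference was 0.23 among the members and 0.32 among all genes. The other 17 had standard errors of 0.11 to 0.26 and adjusted p-values of 0.0912 to 0.960. Without inhibitor replicate 2, 10 members were called, 6 higher (PEG10, KCNQ1, COPG2, MEST, SLC22A18 and ZNF331) and 4 lower (TFPI2, PHLDA2, GRB10 and IGF2R), 45.5% against 40.6% of all genes.

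**Figure D4:**
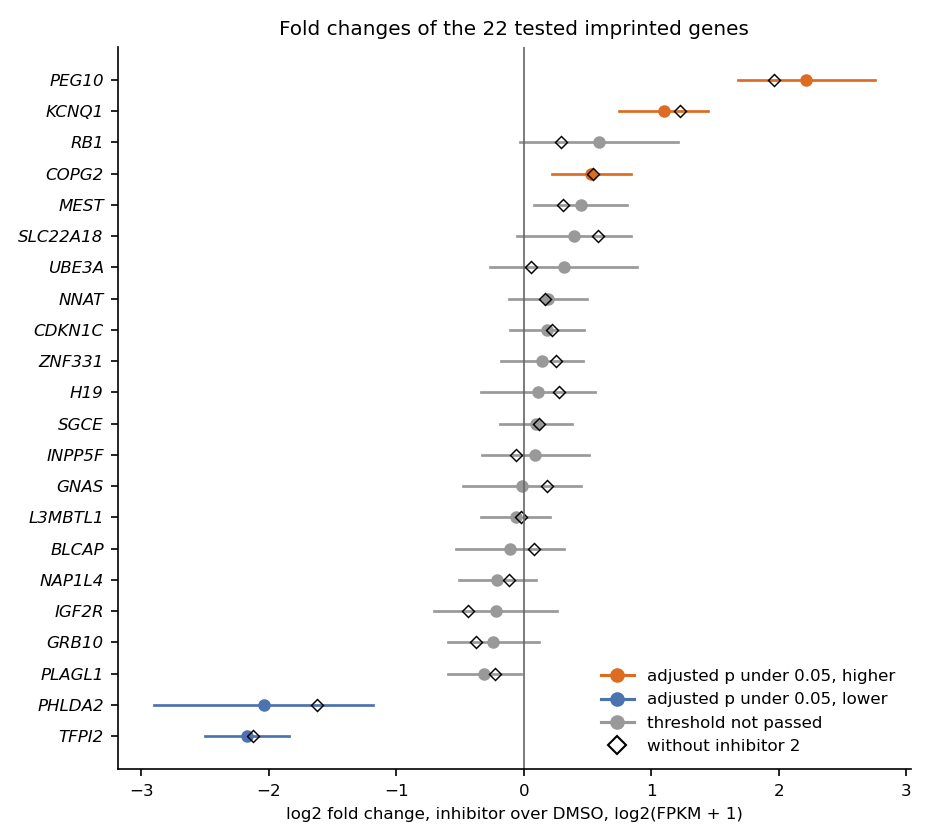
Difference between inhibitor and DMSO (log2 scale of FPKM + 1) with its 95% interval for the 22 tested members; orange and blue points had an adjusted p under 0.05, grey points did not, and open diamonds leave out inhibitor replicate 2. PEG10 at 2.22 and KCNQ1 at 1.10 lead the increases, and TFPI2 at −2.17 and PHLDA2 at −2.04 the decreases.

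The makeup of the summed RNA of the members, which FPKM values compare per length, shifted with these few genes. Summed over the members, the level was 478, 458 and 531 FPKM in DMSO and 412, 352 and 429 with inhibitor. PHLDA2 made up 32.7%, 31.7% and 36.1% of the sum in DMSO and 12.4%, 6.05% and 12.5% with inhibitor. PEG10 went from 0.867%, 0.863% and 0.782% to 4.40%, 9.28% and 4.52%. Levels add both parental copies, so these values do not tell which copy was read. In bulk RNA, fewer cells of a type and less RNA per cell cannot be told apart.

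Lists of related genes were set beside the members. A list of 24 genes covered imprint maintenance, DNA methylation and its removal, and chromatin. Of these, 19 were tested, 1 was called higher and 0 lower by limma (7.18% and 10.0% of all genes tested). Without inhibitor replicate 2 the counts were 1 and 3 (17.5% and 23.1% of all genes). The 1 was ZNF445, a zinc finger protein that binds imprinting control regions, which rose from 2.17 ± 0.0700 to 4.32 ± 0.207 FPKM (SD of 3 libraries each; 0.75, adjusted p = 0.00743; 0.0515 to 0.0524 without DMSO replicate 1 or 2). DNMT1, the maintenance DNA methyltransferase, was at −0.15 (adjusted p = 0.370), and ZFP57, the other imprint-binding zinc finger protein, had 0 reads. The 3 called lower without inhibitor replicate 2 were TET3 (−0.45), EZH2 (−0.31) and EED (−0.29), and DNMT1 was not called there. Of 47 further imprinted genes in the table, 13 were tested and 15 had 0 reads. Of the 13, 0 were called higher and 1 lower (7.18% and 10.0% of all genes tested). CPA4, a carboxypeptidase in the same stretch of chromosome 7 as MEST, was the 1 called, lower, from 5.29 ± 0.893 to 2.13 ± 0.461 FPKM (SD of 3 libraries each; −1.01, adjusted p = 0.0134; 0.0653 to 0.0703 without DMSO replicate 2 or 3). Without inhibitor replicate 2, 3 of the further imprinted genes were called higher and 4 lower (17.5% and 23.1% of all genes).

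Of 23 relatives of PEG10 with a gag-derived protein, 9 were tested, 2 rose and 1 fell (7.18% and 10.0% of all genes tested). Without inhibitor replicate 2 the counts were 2 and 3 (17.5% and 23.1% of all genes). RTL10 rose from 3.41 to 6.83 FPKM (0.83, adjusted p = 0.0139) and RTL6 from 5.11 to 8.64 (0.66, adjusted p = 0.0209). ARC, whose protein forms capsids that carry RNA between neurons, fell from 4.46 to 1.53 FPKM (−1.13, adjusted p = 0.0175). The RTL10, RTL6 and ARC calls were lost without DMSO replicate 1, 2 or 3, and that of RTL6 also without inhibitor replicate 3 (adjusted p = 0.0522 to 0.0933). The median over the 9 was −0.56 with all libraries and −0.03 without inhibitor replicate 2, against −0.05 over all genes tested in either case. None of 5 tested genes reported to act on PEG10 RNA or protein was called by limma (17.2% of all genes tested were called). Without inhibitor replicate 2, 1 was called higher and 1 lower (17.5% and 23.1% of all genes). Among the 5, MYC stood at 144 ± 7.73 FPKM in DMSO and 116 ± 37.6 with inhibitor (SD, n = 3 each, difference −0.36, adjusted p = 0.368). E2F1 stood at 50.2 and 53.9 FPKM (0.05, adjusted p = 0.914). E2F1 was the gene called higher without inhibitor replicate 2 (0.34, adjusted p = 0.0197) and E2F3 the gene called lower (−0.46, adjusted p = 0.0134). Of 10 tested partners of the imprinted IGF network, 2 fell and 0 rose (10.0% and 7.18% of all genes tested). Without inhibitor replicate 2, 6 of these partners were called lower and 1 higher (23.1% and 17.5% of all genes). ZFP36L1, an RNA-binding protein that speeds mRNA decay, fell from 19.3 to 10.8 FPKM (−0.79, adjusted p = 0.00969), and IGFBP1, which binds IGFs in the circulation, from 7.95 to 2.35 (−1.47, adjusted p = 0.0159). Both calls were lost without DMSO replicate 1, 2 or 3 (adjusted p = 0.0546 to 0.0766).

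Trophoblast markers were read beside PEG10, PHLDA2 and TFPI2. INSL4, a placental insulin-like hormone, stood at 1.81 FPKM in DMSO and 10.4 with inhibitor (2.02), and was called higher; CGA, the hormone alpha subunit, was at 182 and 121 FPKM and ALPP, placental alkaline phosphatase, at 114 and 155, neither called. In inhibitor replicate 2 CGA was at 46.5 FPKM, and without that library CGA was called lower (−0.20, adjusted p = 0.0349) and ALPP higher (0.59, adjusted p = 0.00175). The 9 fibroblast markers summed to 5.14 to 5.73 FPKM in DMSO and 10.3 to 15.6 with inhibitor, with COL1A2, PDGFRA and LUM at 0. Most of it was COL1A1 (4.33 and 8.18 FPKM, limma adjusted p = 0.0618) and PDGFRB (1.03 and 4.65 FPKM, 1.47, adjusted p = 0.00267, called higher). Without inhibitor replicate 2 COL1A1 was called higher too (0.99, adjusted p = 0.000992). Of the other fibroblast markers COL3A1 was the highest and reached 0.0987 FPKM. The 4 leukocyte markers summed to no more than 0.559 FPKM in any library. Of 3 endothelium markers, CDH5 fell from 1.24 to 0.339 FPKM (−0.76, limma adjusted p = 0.0320). That call held in only 1 fit that left out a library, the one without inhibitor replicate 2. PECAM1 and VWF reached 0.0393 and 0.180 FPKM. The part of these markers in the results was not tested.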

How the data were processed

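The authors deposited one table of FPKM per gene for 6 libraries, with gene lengths in bases (another unit, used only to convert). Per the submitters' processing notes the build was hg38; the sources used here name no aligner, counter or strand setting. Values multiplied by length gave whole reads (100% of values within 0.01 reads), which set the depths of 14087260 to 15724750 reads per library. Gene models matched GENCODE.

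Differences were tested with limma 3.58.1 in R 4.3.3 on log2(FPKM + 1) with a mean-variance trend, two-sided, over the 13578 genes with at least 1 FPKM in 3 libraries, with Benjamini-Hochberg adjustment over all of them and a threshold of 0.05. The code was tested on simulated data. Per-library ratios used exact permutation. Limits for a count of 0 take 3 reads over the 6 libraries.

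Members and lists were chosen with earlier results of these data known. All 36 members are accounted for. Tested genes within 2 Mb of the start of PEG10 are named. So are up to 4 called genes per list of related genes, or the 2 most abundant where none was called. Called genes of the marker lists are named too. Other genes named were chosen after their values were seen. Promoter sequence is from RefSeq (GRCh38.p14), where 24 of the members matched. Alternatives were another pseudocount, filter, scaling, voom on recovered reads, a length correction, a replicate block and leaving out each library. Numbers shared by DMSO and inhibitor replicates were taken as names only, so the main fit used no pairing.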

Additional observations from a re-analysis of the deposited data

How the results depend on the processing

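Over the 15 alternatives PEG10 (1.96 to 2.46), KCNQ1 (0.99 to 1.25) and TFPI2 (−2.80 to −2.02) passed the threshold each time, PHLDA2 in 12 (−2.27 to −1.62) and COPG2 in 7 (0.43 to 0.62). Leaving out one library gave 2 to 6 members called higher (3 with all libraries) and 1 to 4 lower (2 with all), a PEG10 increase of 1.96 to 2.37 and a PEG10 to SGCE log2 ratio difference of 1.84 to 2.29. With nothing added to FPKM, a choice made after seeing the data, that difference was 2.31. Among all genes, 2339 were called with all libraries, 1533 with no filter, 478, 510 and 579 when DMSO replicate 1, 2 or 3 was dropped, and 1091, 5513 and 1299 when inhibitor replicate 1, 2 or 3 was dropped; the cause was not tested, beyond the smaller number of libraries. With the replicate number as a block, 1478 genes, 2 members higher and 2 lower were called, and COPG2 had an adjusted p of 0.0832. Deviations of same-numbered libraries correlated at −0.018, 0.157 and 0.248, and those of differently numbered libraries at −0.209 to 0.092. With 3 libraries a group, these values cannot decide whether the numbers stand for a pairing. COPG2 was also lost with no filter (adjusted p = 0.0664) and on a TPM scale (0.0729), and IGF2R was called lower (−0.41, adjusted p = 0.0376) with the length trend removed. Uncalled genes changed sign: SGCE was at −0.12 with the length trend removed, BLCAP at 0.012 and GNAS at 0.11 with quantile scaling, and AC006378.1 at −0.10 with a pseudocount of 0.1 and −0.064 with voom. Leaving out one library gave −0.0053 to 0.28 for H19, −0.21 to 0.081 for BLCAP, −0.13 to 0.18 for GNAS, −0.060 to 0.22 for INPP5F, −0.057 to 0.51 for SAMD9 and −0.21 to 0.46 for AC006378.1. Depth limits the members detected below 1 FPKM, and 3 libraries a group allow no exact p under 0.1.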
